A study of Bombyx mori with 12 samples.

Results

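Kr-h1 (gene ID '100415910') and BmMET2 (gene ID '100141425'), a response gene and a receptor gene of juvenile hormone, were taken by gene ID as 2 of the 17583 rows of the silkworm count table, and both passed the filter on low counts. Poly(A) RNA came from pooled head and thorax of Bombyx mori larvae at the molting stage of the third instar, in 12 libraries of 4 groups with 3 libraries each: trimolters and tetramolters of batch 1, and trimolters and tetramolters of batch 2. All groups were of 1 variety, spelled Guangri 3 in the series text and Gurangri 3 in the sample labels, with no genetic change and no agent given. It is a dominant trimolter variety, and the tetramolters are its larvae with a raised number of molts. Larvae were grown on mulberry leaves in spring at 25°C or in autumn at 30 ± 2°C, with day length named as a further influence. No label ties a batch to a season, so groups are named by the labelled batch, and season, temperature, day length and batch cannot be told apart. The series text speaks of 3 silkworms of each kind per season and of pooled tissue. Which animals went into which library is not labelled. P-values therefore measure the spread between these libraries, which may be technical in part. That spread is shared over all 4 groups in the fit, not taken from the compared groups alone.

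Juvenile hormone is a sesquiterpenoid from the corpora allata, glands behind the brain, and keeps an insect larval at the molts that ecdysteroids drive. The hormone binds receptors of the MET type, which are bHLH-PAS transcription factors, and with a coactivator of the SRC (taiman) family the receptor switches on Kr-h1. Kr-h1 encodes a zinc-finger transcription factor that represses genes of metamorphosis. The silkworm has a pair of MET genes, MET1 and BmMET2.

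Library totals ran from 13449541 to 15650612 counts. Across genes, replicates of the batch 1 trimolters correlated least (Pearson r of log2 CPM 0.936 to 0.967), against 0.990 to 0.991 in the batch 1 tetramolters, 0.978 to 0.981 in the batch 2 trimolters and 0.978 to 0.983 in the batch 2 tetramolters. Of the corpora allata markers, Jhamt, the methyltransferase of juvenile hormone synthesis, had 0 to 6 counts per library and was not tested. Of the 6 prothoracic gland markers 5 were tested, with list sums from 15.6 to 69.6 CPM, and torso was not. Of the 4 fat body markers 3 were tested, with sums from 4.83 to 68.2 CPM, and vitellogenin (VG) was at 0 in all 12 libraries. Of the 6 silk gland markers 2 were tested, and the fibroin heavy chain (FIBH) was at 0 throughout.

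Kr-h1 was read at a moderate level everywhere and was highest in the batch 1 tetramolters. Values are given in CPM, counts scaled to a common library size with TMM factors. The 3 batch 1 trimolter libraries held 43.4, 52.6 and 35.4 CPM, and the 3 batch 1 tetramolter libraries held 68.8, 70.4 and 71.8 CPM. All 3 tetramolter libraries lay above all 3 trimolter libraries, and they lay close to each other. In batch 2 the trimolters held 56.4, 48.1 and 50.3 CPM and the tetramolters 55.8, 68.6 and 47.5 CPM. There the ranges overlapped, with the lowest and the highest value both in tetramolters.

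In batch 1, Kr-h1 rose 1.61-fold in tetramolters, from 43.8 ± 8.59 to 70.4 ± 1.51 CPM (SD, n = 3 each; log2 fold change 0.68, SE 0.16, 95% interval 0.34 to 1.03, edgeR adjusted p = 0.00444). The call held without any 1 library, with log2 fold changes from 0.55 to 0.83. Of all 10721 tested genes, 45.4% were called in this comparison (edgeR, adjusted p under 0.05), and 35.6% had a larger absolute change than Kr-h1. Groups did not overlap for 53.7% of genes. In batch 2 the change was not called: 51.6 ± 4.26 against 57.3 ± 10.6 CPM, a log2 fold change of 0.15 with an interval of -0.19 to 0.49 (edgeR adjusted p = 0.475, where 38.0% of genes were called). In bulk tissue, fewer cells of a type and less RNA per cell cannot be told apart.

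The change of Kr-h1 was not shown to differ between the batches. The difference (batch 2 minus batch 1) was -0.53 with an interval of -1.02 to -0.05 and missed the threshold after adjustment (edgeR adjusted p = 0.0604; 53.8% of genes were called). It passed without batch 1 trimolter 2 or without batch 2 tetramolter 2, at -0.68 in each case (edgeR adjusted p of 0.0145 and 0.0208), and with replicate numbers as a block, at -0.57 (edgeR adjusted p = 0.0386), though the numbers were not found to pair the libraries. Averaged over both batches, Kr-h1 was higher in tetramolters by 0.42 log2 units (SE 0.11, edgeR adjusted p = 0.0269; 15.7% of genes were called). That call did not survive the omission of a batch 1 tetramolter, of trimolter 2 or 3 of batch 2, or of tetramolter 2 of batch 2, with values of 0.34 to 0.40 and edgeR adjusted p of up to 0.0819.

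The order of the Kr-h1 group means was batch 1 trimolters, batch 2 trimolters, batch 2 tetramolters and batch 1 tetramolters. No neighbours in that order passed the test. Trimolters of batch 2 against batch 1 gave 0.24 (edgeR adjusted p = 0.32; 15.5% of genes called), and tetramolters gave -0.30 (edgeR adjusted p = 0.122; 58.8% called). The tetramolter difference passed without batch 2 tetramolter 2, at -0.44 (edgeR adjusted p = 0.0355). Across batches, batch 2 tetramolters against batch 1 trimolters gave 0.39 (edgeR adjusted p = 0.085; 28.0% called; 0.54 and adjusted p = 0.0219 without batch 1 trimolter 2). Batch 2 trimolters against batch 1 tetramolters gave -0.45 (edgeR adjusted p = 0.0525; 27.4% called). It passed at -0.44 once trimolter 2 or 3 of batch 1, or tetramolter 2 or 3 of batch 2, was omitted (edgeR adjusted p from 0.0268 to 0.0451). These comparisons share libraries with each other and with those within a batch.

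**Figure D1:**
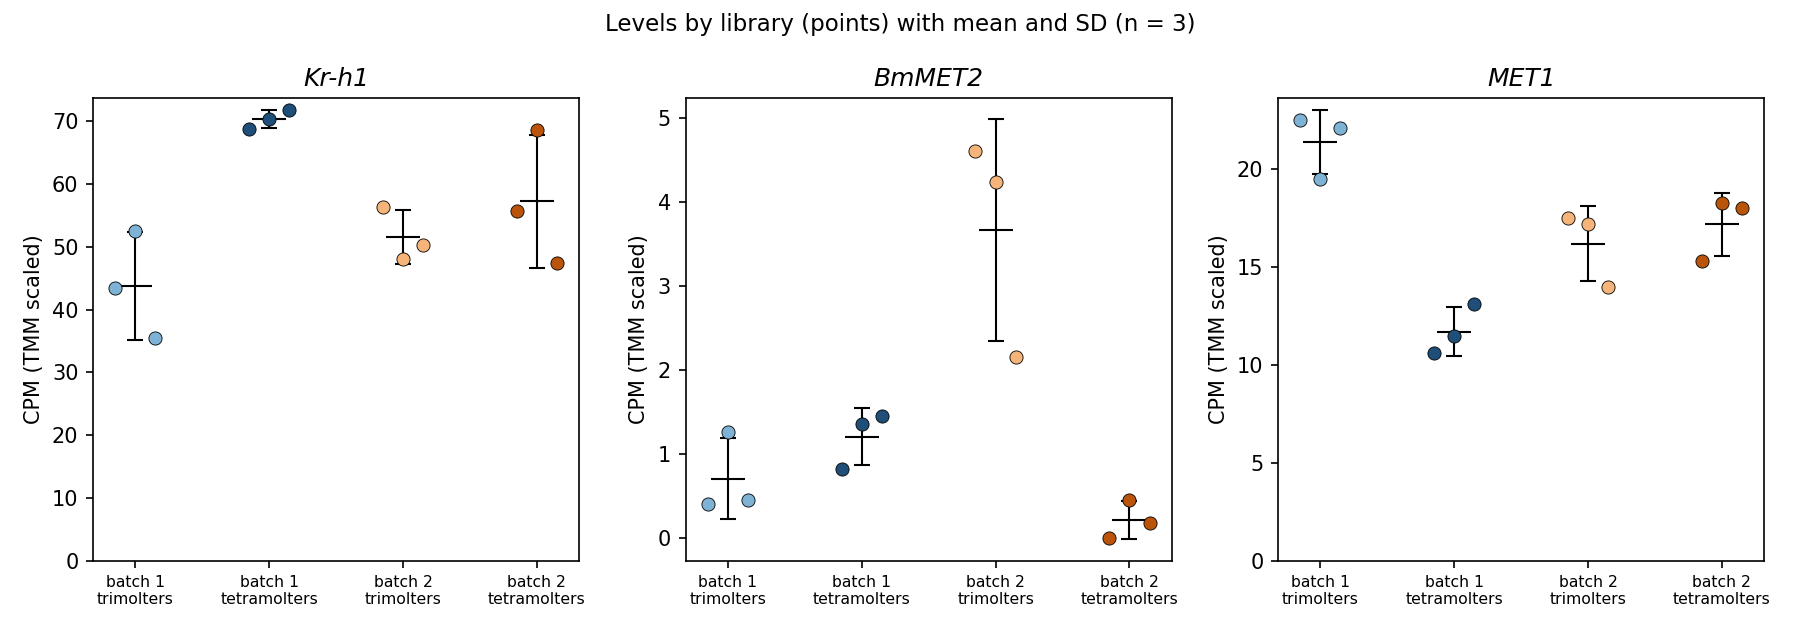
Levels of Kr-h1, BmMET2 and MET1 in CPM (linear axes) for each library of the 4 groups, with the group mean and SD (n = 3). Kr-h1 is highest and MET1 lowest in the batch 1 tetramolters, while BmMET2 reaches 4.61 CPM in a batch 2 trimolter and lies between 0 and 0.453 CPM in the batch 2 tetramolters.

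BmMET2 was a rare transcript with a different order of groups. The batch 1 trimolters held 6, 17 and 7 counts, or 0.403, 1.27 and 0.457 CPM, and the batch 1 tetramolters 12, 19 and 21 counts, or 0.819, 1.36 and 1.46 CPM. The batch 2 trimolters held 70, 64 and 32 counts, or 4.61, 4.24 and 2.16 CPM. The batch 2 tetramolters held 0, 7 and 3 counts, and for the library with 0 counts a level of up to 0.192 CPM (3 counts) remains possible from counting alone. The batch 2 trimolters lay above all other libraries, and the batch 1 trimolters overlapped with both tetramolter groups.

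In batch 2, BmMET2 fell in tetramolters from 3.67 ± 1.32 to 0.213 ± 0.228 CPM (SD, n = 3 each; log2 fold change -4.06, SE 0.77, 95% interval -5.74 to -2.39, edgeR adjusted p = 0.00109). Summed over libraries, 166 counts stood against 10, a ratio of 17.4 after scaling (95% exact interval 9.24 to 37.0, counting error only). Without any 1 library the log2 fold change ran from -5.17 to -3.50 and the call held. Of all tested genes, 38.0% were called here, 0.466% had a larger absolute change, and groups did not overlap for 55.6%. Fitted changes of so rare a gene depend on the scale: with limma on log2(FPKM + 1), which uses 11 libraries, the value was -0.69, still called.

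In batch 1 the change of BmMET2 had the opposite sign and did not pass: 0.71 ± 0.485 in trimolters against 1.21 ± 0.344 CPM in tetramolters, a log2 fold change of 0.78 with an interval of -0.62 to 2.18 (edgeR adjusted p = 0.333). Those ranges overlapped at batch 1 trimolter 2, without which the value was 1.47 (edgeR adjusted p = 0.104). Over all single libraries left out it ran from 0.48, without trimolter 1 of batch 1, to 1.47, never called. The difference between the batches was -4.85 (SE 1.00, edgeR adjusted p = 0.00122) and was called without any 1 library, at -5.95 to -4.28. The average over both batches, -1.64 (edgeR adjusted p = 0.0402), joins these unlike changes. Omitting trimolter 2 or a tetramolter of batch 1, trimolter 1 or 2 of batch 2, or tetramolter 1 or 3 of batch 2 ended its call, with values from -1.75 to -1.30 and edgeR adjusted p of up to 0.0904.

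The order of the BmMET2 group means was batch 2 tetramolters, batch 1 trimolters, batch 1 tetramolters and batch 2 trimolters. Again no neighbours differed past the threshold: batch 2 tetramolters against batch 1 trimolters gave -1.69 (edgeR adjusted p = 0.127; -2.79 without batch 2 tetramolter 2 and -1.0 without batch 1 trimolter 2, neither called) and batch 2 trimolters against batch 1 tetramolters 1.6 (edgeR adjusted p = 0.0566). The latter groups did not overlap, as for 57.7% of genes, and the comparison passed at 1.6 to 1.62 once trimolter 1 or 2 of batch 1, or tetramolter 1 or 2 of batch 2, was omitted (edgeR adjusted p from 0.0304 to 0.0447). Between batches, BmMET2 was higher in trimolters of batch 2 by 2.38 log2 units (SE 0.61, edgeR adjusted p = 0.0227) and lower in tetramolters of batch 2 by 2.47 on the log2 scale, or -2.47 (SE 0.79, edgeR adjusted p = 0.0129). Groups did not overlap in either comparison, as for 31.1% of genes between trimolters and 71.5% between tetramolters. The trimolter call ended on omitting trimolter 3 of batch 1, or trimolter 1 or 2 of batch 2, at 2.14 to 2.25 (edgeR adjusted p of 0.0701 to 0.0926). The tetramolter call held without any 1 library, at -3.57 to -1.90.

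**Figure D2:**
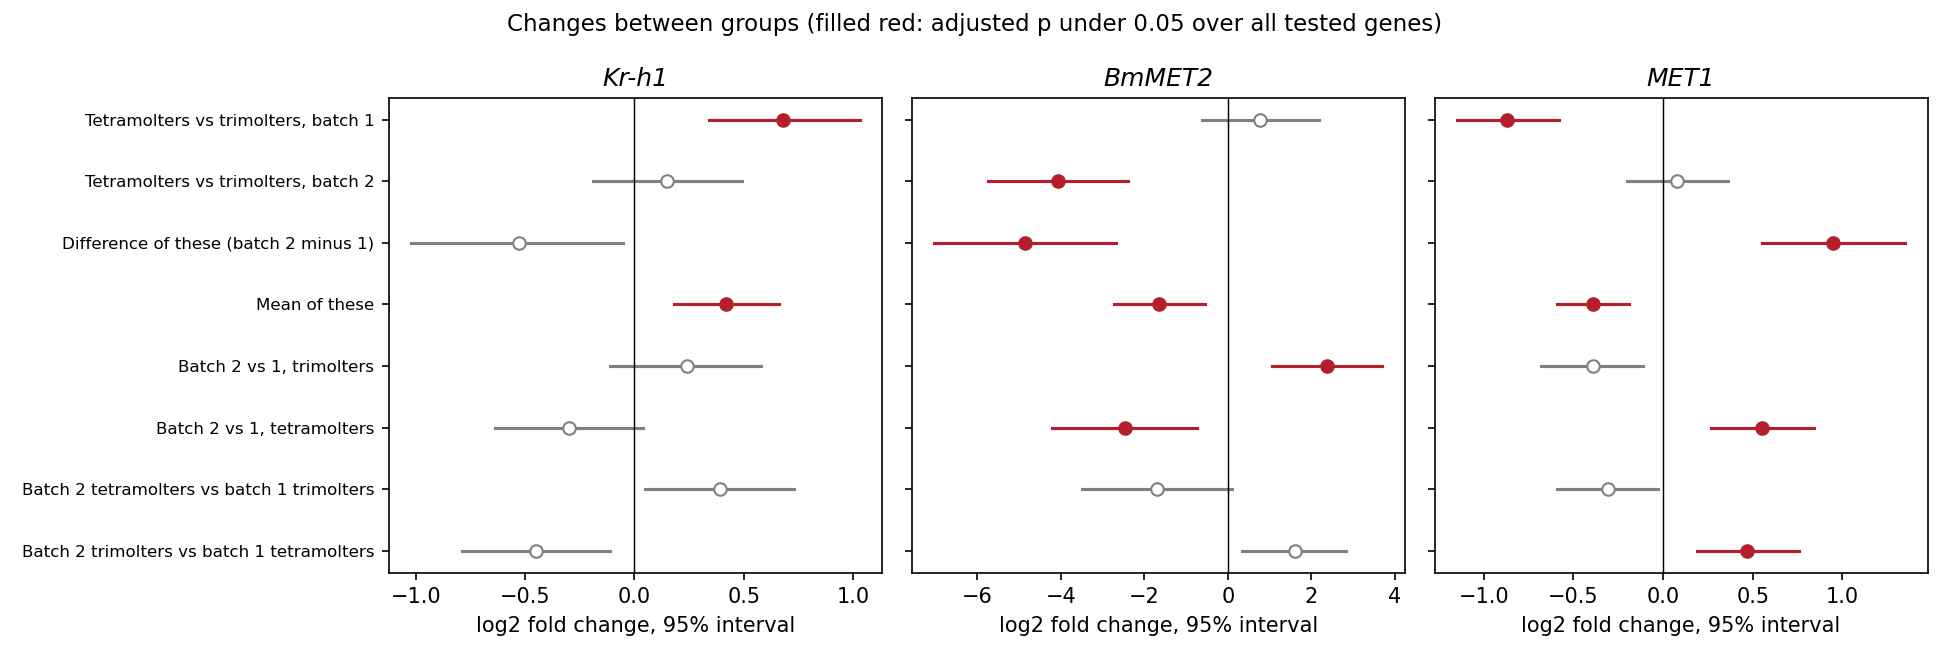
Log2 fold changes of Kr-h1, BmMET2 and MET1 in 8 comparisons (horizontal axes, own scale per gene), with 95% intervals, where filled red points passed the test over all genes. Kr-h1 passes for batch 1 (0.68) and the mean (0.42), and BmMET2 passes with -4.06 in batch 2, 2.38 in trimolters and -2.47 in tetramolters.

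MET1, the other receptor gene, behaved unlike either. Libraries held 22.5, 19.5 and 22.1 CPM in the batch 1 trimolters and 10.6, 11.5 and 13.1 CPM in the batch 1 tetramolters. They held 17.5, 17.2 and 14 CPM in the batch 2 trimolters and 15.3, 18.3 and 18 CPM in the batch 2 tetramolters. By group means, MET1 was lowest where Kr-h1 was highest, and highest where Kr-h1 was lowest. The batch 1 trimolters, highest for MET1, were not called against trimolters or tetramolters of batch 2 (edgeR adjusted p = 0.0579 and 0.0887). Neither comparison was called for Kr-h1. MET1 fell in batch 1 by 0.87 on the log2 scale, or -0.87 (SE 0.13, edgeR adjusted p = 0.000355), and gave 0.08 in batch 2 (interval -0.20 to 0.36). Its change differed between batches by 0.95 (SE 0.18, edgeR adjusted p = 0.00111). The batch 1 call and the difference held without any 1 library.

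Levels of different genes were compared on the authors' FPKM, which corrects for length, in the 11 libraries with values. Kr-h1 averaged 23.4 FPKM, above 77.9% of tested genes, MET1 9.02 FPKM, above 54.9%, and BmMET2 0.276 FPKM, above 2.98%. MET1 was therefore the more abundant receptor transcript in each of these libraries. BmMET2 made up 0.608% and 0.698% of the summed MET1 and BmMET2 FPKM in the measured batch 1 trimolters, 2.57%, 3.86% and 3.67% in the batch 1 tetramolters, and 8.25%, 7.74% and 4.98% in the batch 2 trimolters. In the batch 2 tetramolters the shares were 0%, 0.838% and 0.349%. Batch 1 trimolter 2, without FPKM, held 17 BmMET2 and 261 MET1 counts. Trimolters 1 and 3 of batch 1 held 6 and 334, and 7 and 339. The share of the unmeasured library would therefore be larger than theirs, and their close values do not stand for the group. The shares rest on the low BmMET2 counts given above and on the gene lengths behind the FPKM. Counts and FPKM imply 5132 to 5581 bases for BmMET2 and 1748 to 1901 bases for MET1, so shares of counts would be larger.

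The summed FPKM of both receptor genes ran from 5.81 to 7.26 in the batch 1 tetramolters and from 8.24 to 12.3 in the other libraries, so the sum followed MET1. The ratio of Kr-h1 to MET1 within a library, again on FPKM, was 1.47 and 1.22 in the batch 1 trimolters and 4.96, 4.67 and 4.19 in the batch 1 tetramolters. In batch 2 it was 2.46, 2.13 and 2.73 in trimolters and 2.77, 2.86 and 2.01 in tetramolters. The measured batch 1 libraries lay at the low end (trimolters) and the high end (tetramolters), and the batch 2 groups overlapped between them. Batch 1 trimolter 2, without FPKM, is not covered. It held 704 Kr-h1 and 261 MET1 counts, against 772 and 292 in batch 2 tetramolter 3. By counts its ratio was therefore above that of a batch 2 library, and the low end is not shown for all batch 1 trimolters.

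**Figure D3:**
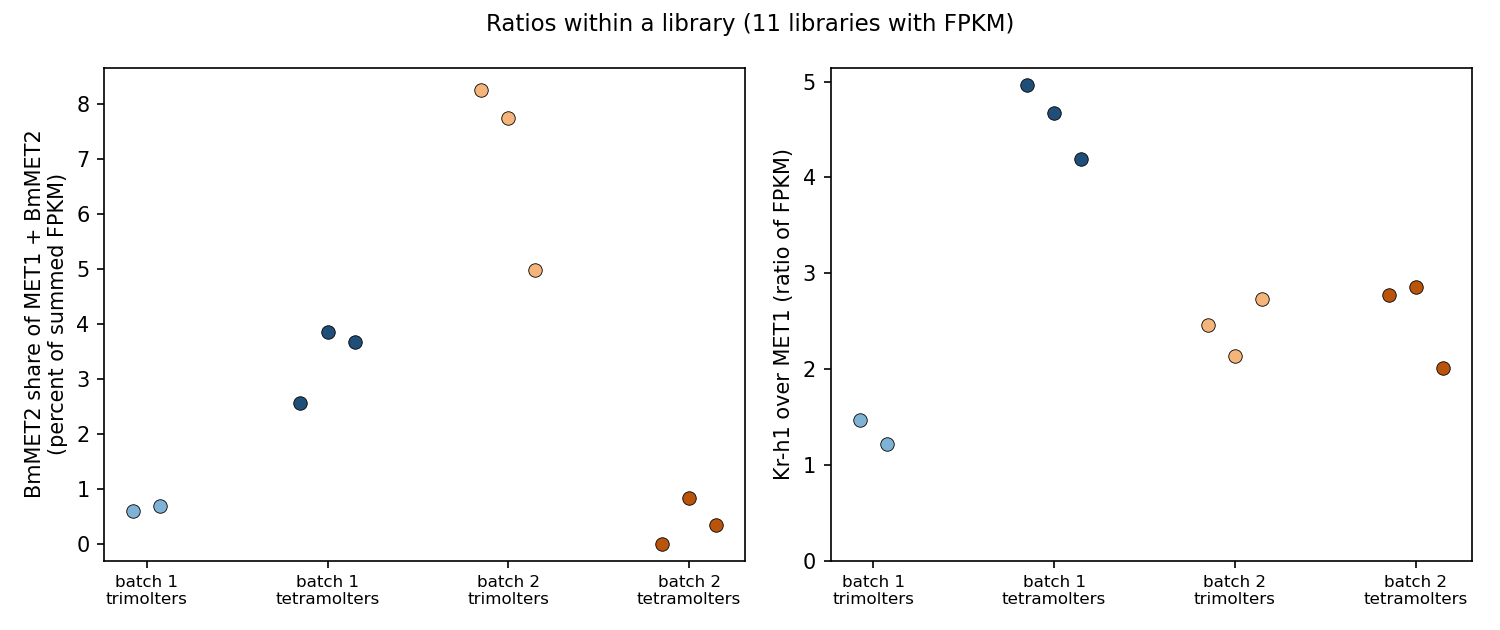
Left, the percent of summed MET1 and BmMET2 FPKM that is BmMET2, and right, the ratio of Kr-h1 to MET1 FPKM, for each of 11 libraries by group (batch 1 trimolter 2 has no FPKM values). The BmMET2 share is highest in the batch 2 trimolters (4.98% to 8.25%), and the ratio is highest in the batch 1 tetramolters (4.19 to 4.96).

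The spread between replicates differed between the member genes. For Kr-h1 the SD of log2 CPM was 0.284 in the batch 1 trimolters, 0.0308 in the batch 1 tetramolters, 0.117 in the batch 2 trimolters and 0.265 in the batch 2 tetramolters. The medians over all tested genes were 0.292, 0.114, 0.153 and 0.186 in the same order. For BmMET2 the SDs were 0.763, 0.403, 0.574 and 1.07, above the median in each group. With 0 to 70 counts of BmMET2 per library, counting error is part of these SDs, and its share was not tested.

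Markers of other tissues were called in the same comparisons, against 22.7% of all tested genes higher and 22.7% lower in batch 1, and 19.7% and 18.3% in batch 2, and a count of 1 marker says nothing beyond these shares. In the batch 1 tetramolters, where Kr-h1 rose, 4 of 5 muscle markers were called higher and none lower, and their summed level was 13300 to 14300 CPM against 4110 to 9490 CPM in trimolters. Of 5 tested prothoracic gland markers 1 was called, higher, with a summed list level of 65.0 to 69.6 against 15.6 to 22.0 CPM. Both trachea markers were lower (36.9 to 39.9 against 41.4 to 57.6 CPM). In the batch 2 tetramolters, where BmMET2 fell, 4 of 5 muscle markers were lower, with sums of 4260 to 5100 against 6820 to 8980 CPM in trimolters. The corpora allata list, in effect P450 alone, summed to 1.28 to 1.72 against 3.10 to 3.71 CPM. Of 5 tested prothoracic gland markers 2 were higher and 1 lower, with sums of 29.3 to 37.4 against 34.5 to 40.5 CPM. Of the 2 haemocyte markers none was called (2010 to 2430 against 3320 to 4100 CPM), nor was either midgut marker in either batch. Of 3 tested fat body markers 1 was higher and 1 lower in batch 1 and 1 was higher in batch 2. Of 2 tested silk gland markers 1 was higher in batch 1 alone, and of 3 tested markers of nervous system and eye 1 was higher in batch 2 alone. The part of these tissues in the changes of Kr-h1 and BmMET2 was not tested.

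The wider pathway was read from a list of 25 juvenile hormone genes in the table, of which 21 were tested. In the batch 1 tetramolters 4 were called higher and 10 lower, with a median log2 fold change of -0.20, against 22.7% of all tested genes higher, 22.7% lower and a median of 0.01. Without batch 1 tetramolter 1, 9 list genes were called. In batch 2, 4 were higher and 4 lower with a median of 0.08, against 19.7% and 18.3% of all genes and a median of -0.01. The difference between batches was called positive for 9 and called negative for 3 list genes, with a median of 0.47, against 26.8% and 26.9% of all genes and a median of -0.01.

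Among the partners of the receptor, Hsp90, a chaperone, fell in batch 1 and rose in batch 2, by -1.52 and 2.35 log2 units (edgeR adjusted p = 0.00125 and 0.000168). Its means were 334 CPM in trimolters and 117 CPM in tetramolters of batch 1, and 239 and 1220 CPM in batch 2. RefSeq gives the synonym SRC to LOC101741527 and LOC100862655, a name used for the coactivator of MET and for a kinase, and the sources used here do not tell which is which. LOC101741527 gave -0.19 and -0.13, neither called. LOC100862655 was called in batch 1 at -0.38 and gave 0.09 in batch 2. Its batch 1 call was lost without batch 1 trimolter 3 or batch 1 tetramolter 1 (-0.30 and -0.37).

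Among response genes in batch 1, Br-c and Ftz-f1 fell while Kr-h1 and E75 rose. Br-c, the broad complex gene of the pupal program, was at -0.70 in batch 1 (28.0 to 17.2 CPM, edgeR adjusted p = 0.0109) and near 0 in batch 2, at 22.6 CPM in both groups. Its batch 1 call was lost without batch 1 trimolter 3 (-0.51) and in limma on FPKM with either pseudocount (-0.33 and -0.56, adjusted p = 0.0683 and 0.0753). Ftz-f1, a nuclear receptor of molt timing, fell in both batches, by -0.50 and -0.72 (edgeR adjusted p = 0.0199 and 0.00362), and its batch 1 call was lost without batch 1 tetramolter 1 (-0.49). E75, an ecdysone response gene that juvenile hormone also acts on, gave 0.35 in batch 1 (edgeR adjusted p = 0.0244). That call ended on omitting trimolter 2 or 3 of batch 1, a batch 1 tetramolter, or a batch 2 trimolter (0.27 to 0.31). It also ended without a filter (0.29), in limma on FPKM (0.25 with either pseudocount) and with the compared groups alone (0.32), with adjusted p from 0.0765 to 0.1.

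Of the 6 tested genes of hormone synthesis, 3 were called lower in batch 1, while 2 were called higher and 1 lower in batch 2. Of all tested genes 45.4% and 38.0% were called in either direction, so 3 of 6 in either direction is near the background. By direction, 22.7% of all tested genes were lower in batch 1, and 19.7% were higher and 18.3% lower in batch 2. With 6 genes, nothing is read from the direction of the calls. Aact and Hmg-r, of the mevalonate pathway, and Fpps3, a farnesyl diphosphate synthase gene, were called lower in batch 1 at -0.53, -0.57 and -0.39. In batch 2 Hmg-r and Fpps3 were called higher at 0.50 and 0.45, and Aact gave 0.31 (edgeR adjusted p = 0.0564; called at 0.29 to 0.40 once trimolter 1 or 2 of batch 1, or tetramolter 1 of batch 2, was omitted). The Fpps3 call of batch 1 ended on omitting a batch 1 trimolter, tetramolter 1 or 3 of batch 1, or tetramolter 1 of batch 2, and that of batch 2 on omitting trimolter 1 or 3 or tetramolter 3 of batch 2, with values from -0.42 to -0.37 and from 0.31 to 0.40. The batch 2 call of Hmg-r ended on omitting a batch 2 trimolter or tetramolter 3 of batch 2 (0.42 to 0.51). Upper quartile factors also ended the batch 2 calls of Hmg-r (0.41) and Fpps3 (0.37), and the batch 1 call of Fpps3 (-0.35). The last was lost as well in limma-voom (-0.39), in limma on log2(FPKM + 1) (-0.36) and with the replicate block (-0.39).

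P450 (gene ID 100286798, synonyms CYP15C1 and mod) encodes the epoxidase of juvenile hormone synthesis in the corpora allata, and silkworms that lack it make no juvenile hormone and molt fewer times. The batch 2 trimolters held 42, 56 and 49 counts and the batch 2 tetramolters 20, 23 and 25. These groups did not overlap, as for 55.6% of all tested genes, and 38.0% of genes were called in batch 2. P450 fell there by -1.18 log2 units (SE 0.25, edgeR adjusted p = 0.00378), gave 0.18 in batch 1, and differed between batches by -1.36 (edgeR adjusted p = 0.00677).

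Among transport and breakdown genes, hJHBP, the haemolymph carrier of the hormone, rose by 0.72 in batch 1 and fell in batch 2, at -1.0 (edgeR adjusted p = 0.0225 and 0.00528). Its batch 1 call ended on omitting trimolter 1 or 3 or a tetramolter of batch 1 (0.54 to 0.70). The gene an-0921, which RefSeq also names JHBP, went the other way, at -0.69 and 1.10, and ce-0330, with the same synonym, rose in batch 1 from 7 to 57 summed counts and gave 0.43 in batch 2. Jheh2, an epoxide hydrolase that degrades the hormone, fell in batch 1 by -1.08 (146 to 69.2 CPM, edgeR adjusted p = 0.000274) and gave -0.03 in batch 2. The esterase gene jhe1, the kinase gene Jhdk, Ippi and Fpps2 were not called within either batch. E93, Hmgs, MevK, MevPK, MevPPD and allatotropin matched no gene by name and were not analysed here. Jhamt, e96h-0303, AST-A and AST-C had 34 to 65 counts over all 12 libraries and were not tested.

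**Figure D4:**
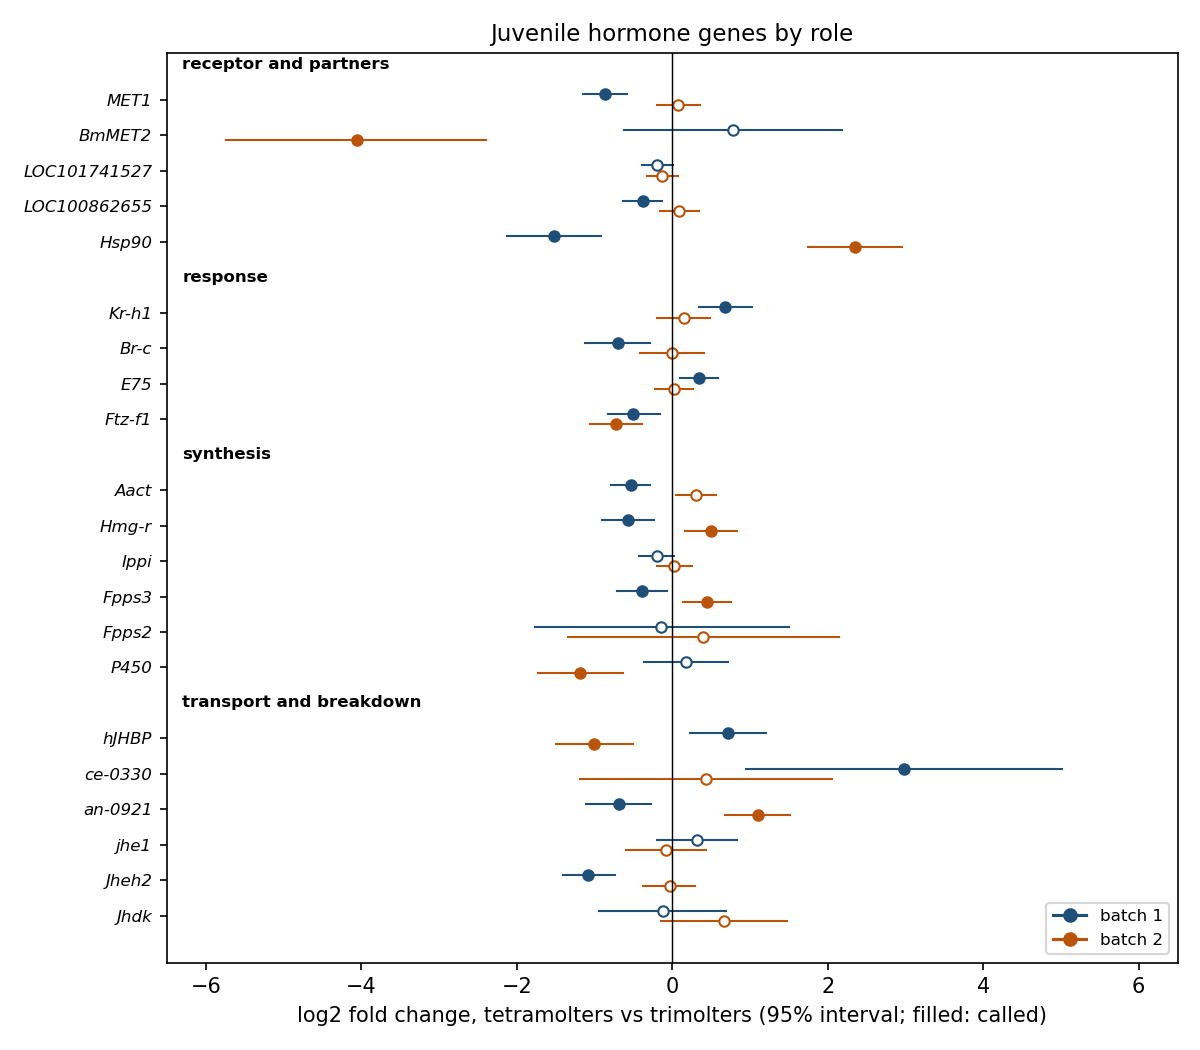
Log2 fold changes of tetramolters against trimolters for the 21 tested juvenile hormone genes, by role, in batch 1 (blue) and batch 2 (orange), with 95% intervals and filled points for genes past the test. Kr-h1 is filled for batch 1 only (0.68) and BmMET2 for batch 2 only (-4.06), while Hsp90, Hmg-r, Fpps3, hJHBP and an-0921 are filled on opposite sides of 0.

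Genes with a pattern like that of each member were ranked by Pearson r of log2 CPM over the 12 libraries, among 1021 named genes for Kr-h1 and 1022 for BmMET2, as a description only, since the libraries share group and batch. Closest to Kr-h1 were CPR40, a cuticle protein gene (r = 0.884), RpS2e, of the ribosome (0.878), BGRP2, a glucan recognition protein gene (0.865), ST3 (0.864) and CSP9, a chemosensory protein gene (0.857). As these genes were picked by r over the same libraries, a shared pattern of groups follows largely from the choice. All 5 were highest in the batch 1 tetramolters. They were called higher there within batch 1, as were 22.7% of all tested genes, from 0.75 (RpS2e) to 1.52 (BGRP2). None was called in batch 2. After the group means were removed, r ran from 0.485 to 0.752.

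Closest to BmMET2 were ae40, with the RefSeq synonym jhe-lp4 (r = 0.915), P450 (0.904), serpin-21, of the protease inhibitors (0.891), Cyp9a21, a cytochrome P450 gene (0.883), and Pgrmc2 (0.878). Here too the genes were picked by r over the same libraries, so a shared pattern of groups follows largely from the choice. All 5 were highest in the batch 2 trimolters. They were called lower in the tetramolters of batch 2, as were 18.3% of all tested genes, from -1.60 (Pgrmc2) to -0.66 (Cyp9a21). None was called in batch 1. Each of the batch 2 changes was smaller than that of BmMET2. With group means removed, r ran from 0.415 to 0.687.

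**Figure D5:**
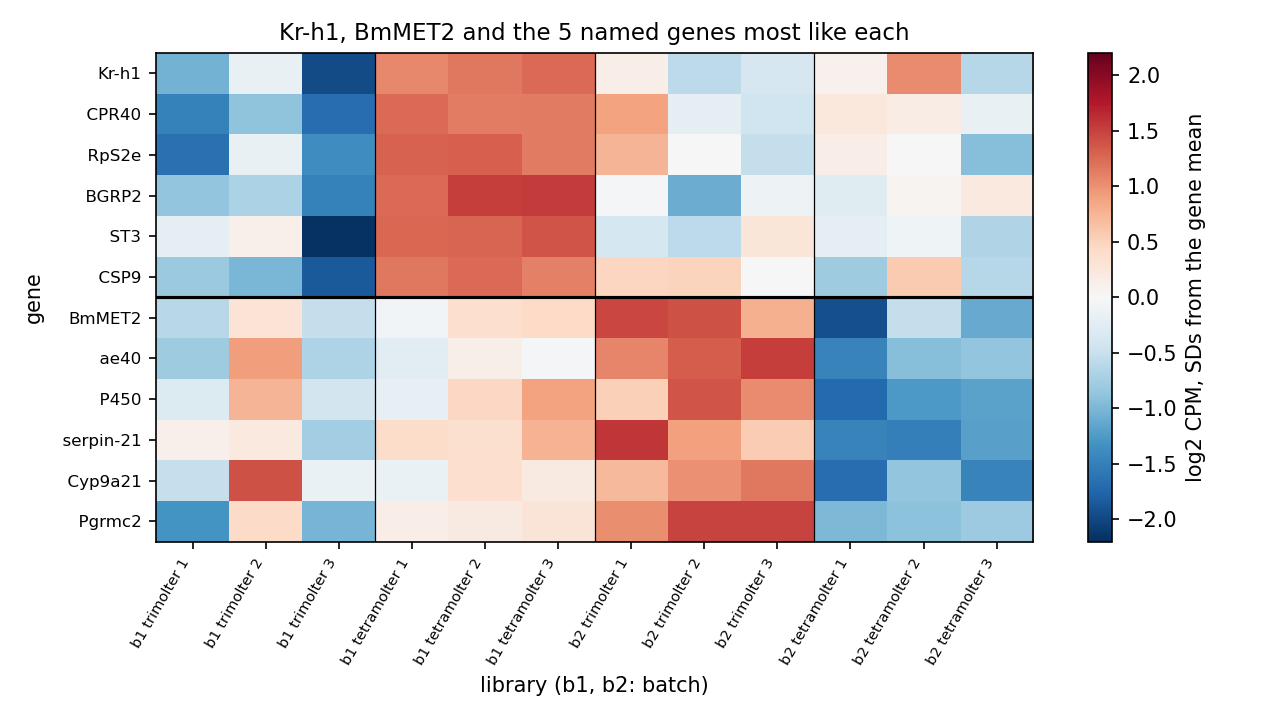
Log2 CPM of Kr-h1, BmMET2 and the 5 named genes most like each, in SDs from each gene's own mean (colour), over the 12 libraries (columns, grouped). The upper block is highest in the batch 1 tetramolters, the lower block is highest in the batch 2 trimolters and lowest in the batch 2 tetramolters, and r with the member is 0.857 to 0.884 above and 0.878 to 0.915 below.

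In the RefSeq gene table no gene overlapped Kr-h1, BmMET2 or MET1. No tested neighbour of BmMET2 was called in batch 2: Th, the tyrosine hydroxylase gene on one side, gave 0.52, and LOC101746809 and LOC101746951 on the other gave 0.30 and -0.77. The difference between batches was called for LOC101746951 in the direction of BmMET2, at -1.35 (edgeR adjusted p = 0.0286), and for LOC101746809 in the other direction, at 2.21 (edgeR adjusted p = 0.000266). Within batch 1, LOC101746809 was called lower in tetramolters at -1.91 (edgeR adjusted p = 0.000161), and the other tested neighbours of BmMET2 were not called. The tested neighbours of Kr-h1 gave 0.17, -0.24 and 0.03 in batch 1, with no call. The last of these, LOC778458, was called in batch 2 at 1.28 and in the difference at 1.25 (edgeR adjusted p = 8.17e-05 and 0.000176). The other tested neighbours of Kr-h1 were called in neither. The part of neighbouring genes in the counts was not tested. RefSeq lists 4 transcripts for Kr-h1, 3 for BmMET2 and 1 for MET1, and the gene-level counts do not separate them.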

How the data were processed

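Poly(A) RNA of 12 libraries was measured, and groups follow the labels for molting type and batch. Per the submitters' processing notes, the tools were DESeq2 1.38.3, StringTie 2.2.1, HISAT2 2.2.1 and Trimmomatic 0.39, and the labels' extract protocol names HISAT2 2.0.5. Not given in the sources used here: counting program, genome build, annotation and strand setting. The authors deposited whole-number counts per gene, not normalized, and FPKM values scaled by length and depth. The FPKM column of batch 1 trimolter 2 is empty, so 11 were used. Names came from RefSeq, assembly ASM3026992v2, which matched 14945 of 17583 rows. The 511 loci numbered by the authors, 0.21% to 0.264% of counts, were left out.

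The count test was edgeR 4.0.16 (R 4.3.3, quasi-likelihood F) with TMM factors and filterByExpr by group, which left 10721 genes, in 1 model with a mean per group over 12 libraries. P-values are 2-sided and adjusted by Benjamini and Hochberg over all tested genes of a comparison, with a threshold of 0.05. Standard errors use the model weights with the moderated dispersion. The test was run on simulated counts with the same spread for every gene and group. The groups here differ in spread, so that run does not check the test under these conditions. No replicates agreed within sampling noise. Alternatives were other scaling factors, no filter, DESeq2 1.42.0, limma 3.58.1 (voom, and log2(FPKM + 1) or log2(FPKM + 0.1)), the compared groups alone, the numbered loci kept, replicate numbers as a block, and each library left out. Intervals on ratios of counts are exact at 95% and cover counting error only.

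The members, lists and comparisons were chosen with earlier results of these data known. Genes named were the members, MET1, list genes called within a batch or in the difference, and the 5 most similar genes with a symbol and a mean of at least 1 log2 CPM (prior count 2). SRC symbols, neighbours and uncalled list genes were named after their values were seen. Marker lists covered corpora allata, prothoracic gland, muscle, trachea, haemocytes, fat body, silk gland, midgut, and nervous system and eye.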

Additional observations from a re-analysis of the deposited data

Results flagged for a closer look

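The change with molting type differed between the batches for BmMET2 by the test of the difference itself, at -4.85 log2 units (batch 2 minus batch 1, edgeR adjusted p = 0.00122). The same test passed for 53.8% of all tested genes, so passing it does not set a gene apart. It also passed for MET1 at 0.95, for Hsp90 at 3.87, for the SRC gene LOC100862655 at 0.47 and for Br-c at 0.71. Of synthesis genes it passed for Aact at 0.84, Hmg-r at 1.07, Fpps3 at 0.84 and P450 at -1.36. Of transport and breakdown genes it passed for hJHBP at -1.72, an-0921 at 1.79 and Jheh2 at 1.05. The calls of LOC100862655 and Br-c were lost without some single libraries. For LOC100862655 these were batch 1 trimolter 3, batch 1 tetramolter 1, batch 2 trimolter 1 and batch 2 tetramolters 2 and 3 (0.39 to 0.45). For Br-c these were batch 1 trimolters 2 and 3, batch 1 tetramolters 1 and 2, batch 2 trimolters 1 and 3 and every batch 2 tetramolter (0.52 to 0.75). Upper quartile factors ended both calls (0.34 for LOC100862655 and 0.57 for Br-c). For Br-c the FPKM fits (0.34 and 0.57) and limma-voom (0.67) ended it too.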

How the results depend on the processing

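Of the members' calls, 3 kept their direction and call under every alternative run: Kr-h1 in batch 1 (0.63 to 0.81 in other settings), and BmMET2 in batch 2 (-4.56 to -0.69) and in the difference (-5.48 to -0.87), where the smallest values came from log2(FPKM + 1). Upper quartile factors moved the median of all genes to -0.10 in batch 2, -0.14 in the difference and -0.13 between tetramolters. For other comparisons of Kr-h1 the call was gained in some settings, and the cause was not tested. The FPKM fits lack batch 1 trimolter 2. In edgeR, omitting that library alone also gained the call of the difference (-0.68) and of batch 2 tetramolters against batch 1 trimolters (0.54). It did so too for batch 2 trimolters against batch 1 tetramolters (-0.44). The FPKM fits and that omission are therefore not separate support. The difference was called with upper quartile factors (-0.66), limma-voom (-0.56), and limma on FPKM (-0.63, and -0.66 with 0.1), and ranged from -0.68 to -0.40 without 1 library, while the mean ranged from 0.34 to 0.49. Tetramolters between batches were called with upper quartile factors (-0.40), and ranged from -0.44 to -0.17. Batch 2 tetramolters against batch 1 trimolters were called in limma on FPKM (0.53 and 0.56), and ranged from 0.24 to 0.54. Batch 2 trimolters against batch 1 tetramolters were called with upper quartile factors (-0.47), DESeq2 (-0.43), limma on FPKM (-0.38 and -0.39), these groups alone (-0.44) and the numbered loci kept (-0.45), and ranged from -0.49 to -0.37.

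For BmMET2, the mean was lost in limma-voom (-1.82; -2.19 to -1.30 without 1 library), trimolters between batches with these groups alone (2.38; 2.10 to 3.07), and tetramolters between batches with log2(FPKM + 1) (-0.23). Batch 2 trimolters against batch 1 tetramolters were called in DESeq2 (1.62), limma-voom (1.55), limma on FPKM (0.46 and 1.27) and these groups alone (1.61), and ranged from 1.40 to 1.89. Counts of list genes called were 5 in limma on FPKM and 0 with these groups alone for trimolters between batches (2 in the edgeR test; 0 to 5 without 1 library). They were 2 for batch 2 tetramolters against batch 1 trimolters with these groups alone (6; 2 to 10), and 14 for batch 2 trimolters against batch 1 tetramolters (6; 2 to 10). Without 1 library they were 9 to 14 for batch 1 and 3 to 9 for the mean (5). Over all genes, 1664 were called between trimolters, against 2683 and 2685 in limma on FPKM and 135 with these groups alone, and from 715 (without batch 1 trimolter 3) to 2714 (without batch 1 trimolter 2) with 1 library left out. The 1679 of the mean ran from 909 (without batch 1 tetramolter 1) to 2492 (without batch 1 trimolter 1), so the shares of 15.5% and 15.7% move with single libraries. Counts with these groups alone were 989 against 3005 for batch 2 tetramolters and batch 1 trimolters, and 4997 against 2940 for batch 2 trimolters and batch 1 tetramolters. For the mean, 637 of 1436 calls were higher without a filter, against 924 of 1679. Uncalled list values near 0 in batch 2 changed sign: MET1 (-0.01 with upper quartile factors, -0.03 to 0.16 without 1 library), Br-c (-0.08 with upper quartile factors, -0.02 without a filter, -0.07 to 0.05 without 1 library), E75 (-0.06 with upper quartile factors, -0.05 to 0.08 without 1 library), ce-0330 (-0.05 to 0.95) and Jheh2 (-0.13 to 0.06).

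The replicate numbers of the titles did not pair the libraries: deviations of same-numbered libraries correlated at -0.042 to 0.114, over 0.1 for 1 of 18 pairs, and 15 of 36 matches were best with the own number. With the number as a block, the Kr-h1 difference was -0.57 and batch 2 trimolters against batch 1 tetramolters -0.45, both called, and no other call of the members changed. At 0 to 70 counts per library, depth limits BmMET2 more than Kr-h1.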
